A study of Ovis aries with 16 samples.

Results

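TBC1D5, RAPGEF5 and FRMD3 are long genes, each of which holds a region listed by the study as a differentially methylated region (DMR) between maternal diets. Their methylated DNA was mapped from end to end rather than at the listed region alone. The ends of each gene came from the study's list of DMR genes, and all peaks that overlapped a gene body or the 10 kb on either side of it were taken. In the Oar_v3.1 assembly, TBC1D5 (ENSOARG00000015558) lies on chromosome 1 from 272177030 to 272446539, a body of 269510 bp. RAPGEF5 (ENSOARG00000011836) lies on chromosome 4 from 30902394 to 31102682 (200289 bp), and FRMD3 (ENSOARG00000009045) lies on chromosome 2 from 36000382 to 36343285 (342904 bp). The 3 genes held 3683 of the 6410742 peaks called over all fetuses. Peaks of different fetuses that shared at least 1 bp were merged into regions, and those seen in 2 or more fetuses were kept. Of the 512238 such regions, 241 lay in these genes: 115 in TBC1D5, 72 in RAPGEF5 and 54 in FRMD3.

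The samples were longissimus dorsi (LD) muscle of 16 fetuses of Polypay ewes, 8 from hay-fed and 8 from corn-fed dams, and the dams received their diet from mid-gestation until necropsy. Both diets were made to supply equivalent metabolizable energy, and the corn diet also contained some haylage. Genomic DNA was enriched with a methyl-binding domain (MBD) protein and sequenced, and peaks were called in each fetus separately. Most fetuses had a twin among the samples, including all those from hay-fed ewes, and the labels give neither dam nor sex. All p-values, between diets and within fetuses, therefore treat littermates as independent and may be too small.

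Methylated CpG sites are common within the bodies of genes and are usually sparse at CpG-rich promoters. MBD enrichment recovers fragments that carry several methylated CpG sites, so a peak reflects both the methylation and the local number of CpG sites, and a stretch without peaks may hold few such sites or unmethylated ones. TBC1D5 is a GTPase-activating protein for Rab GTPases that binds the retromer and takes part in endosomal sorting and autophagy. RAPGEF5 is a guanine nucleotide exchange factor that switches on Rap GTPases, which act in cell adhesion and signalling. FRMD3 is a member of the FERM domain proteins, which link the membrane to the cytoskeleton. In the annotation of a later sheep assembly (ARS-UI_Ramb_v3.0), PLCL2 neighbours TBC1D5, CDCA7L neighbours RAPGEF5, and IDNK neighbours FRMD3. The sources used here do not give the strand of the genes in Oar_v3.1, so positions are given in kb from the end with the lower coordinate, called the lower end.

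The number of peaks per fetus ran from 261331 in hay 11 to 519923 in hay 15, and the depth of sequencing behind them is unknown. In 5 libraries (hay 3, 12, 15 and 16, and corn 4) the peaks were narrow, with a median width of 250 to 263 bp, against 282 to 508 bp in the other 11. Of these 5 libraries 4 were from hay-fed ewes, so peak width and diet overlap in part. Median peak width was 283 ± 37.1 bp (SD, n = 8) in hay and 351 ± 89.3 bp (SD, n = 8) in corn (exact permutation test, two-sided, p = 0.07102). Diet comparisons that these libraries moved are also given without them.

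TBC1D5 was dense in peaks, RAPGEF5 was moderately above the genome, and FRMD3 had few peaks for its length. TBC1D5 had between 117 peaks (hay 11) and 182 peaks (corn 4) per fetus, with a median of 143. RAPGEF5 had between 28 (hay 11) and 76 (hay 15), with a median of 56.5. FRMD3 had between 12 (hay 11) and 47 (hay 15), with a median of 27.5. The counts of TBC1D5 and RAPGEF5 did not overlap, so that the fetus with the fewest peaks in TBC1D5 still had more than any fetus had in RAPGEF5. The fetus with the fewest peaks in the genome, hay 11, was also lowest at all 3 genes.

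Per 100 kb, TBC1D5 had 50.02 ± 7.10 peaks (SD, n = 16), RAPGEF5 had 25.7 ± 6.62 and FRMD3 had 7.94 ± 3.01. The same fetuses had 15.5 ± 2.98 peaks per 100 kb over all chromosomes. Set against the genome of the same fetus, TBC1D5 was 3.26-fold denser (2.72 to 4.001 over fetuses, higher in 16 of 16) and RAPGEF5 was 1.63-fold denser (1.14 to 1.93, higher in 16 of 16). FRMD3 had 0.484 times the density of the genome (0.294 to 0.645, higher in 0 of 16). Each of these 3 differences had p = 3.052e-05, the smallest that the exact sign-flip permutation test over 16 fetuses can give (two-sided, unadjusted). This p-value measures how steadily the fetuses agreed at 1 place in the genome, not how unusual that place is. The 3 genes thus departed from the genome in different directions, and every fetus showed the direction of the mean at each gene.

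The genes also differed among themselves in every fetus. TBC1D5 had 2.003 times the density of RAPGEF5 (1.58 to 3.18 over fetuses) and 6.74 times that of FRMD3 (4.21 to 12.3). RAPGEF5 had 3.36 times the density of FRMD3 (2.51 to 5.05). Each of the 3 ratios was above 1 in 16 of 16 fetuses (exact sign-flip permutation test, p = 3.052e-05, two-sided, unadjusted, the smallest possible). The order TBC1D5, RAPGEF5, FRMD3 was therefore the same in all 16 fetuses, whichever diet the dam received. The p-values of these ratios likewise measure agreement among fetuses.

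**Figure D1:**
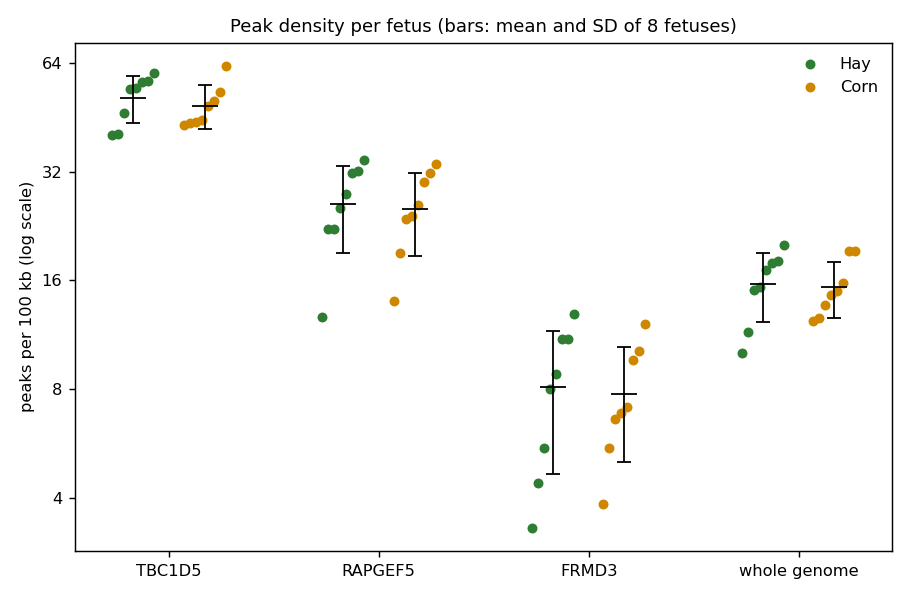
Peaks per 100 kb (log scale) in the bodies of TBC1D5, RAPGEF5 and FRMD3 with 10 kb on either side, and over the whole genome, for each fetus of hay-fed (green) and corn-fed (orange) ewes. Points are fetuses, and black bars are the mean and SD of 8 fetuses; the hay and corn points overlap in every column, while TBC1D5 lies above and FRMD3 below the genome.

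Against windows of 100 kb laid along all chromosomes, the density of TBC1D5 was higher than that of 98.9% of windows, that of RAPGEF5 higher than 83.0% and that of FRMD3 higher than 29.1%. The median window held 11.6 peaks, fewer than the genome mean of 15.5 per 100 kb. Among the 11 genes of the study's list with a body of at least 100 kb, TBC1D5 ranked 1, RAPGEF5 ranked 3 and FRMD3 ranked 11. The gene between TBC1D5 and RAPGEF5 was MEGF11 with 29.9 ± 8.33 peaks per 100 kb (SD, n = 16), and the gene next above FRMD3 was ADAMTS12 with 9.03 ± 3.60. The differences RAPGEF5 to MEGF11 and FRMD3 to ADAMTS12 were smaller than the SD over fetuses of either gene. That between TBC1D5 and MEGF11 was larger than either SD. These SDs are over fetuses that also differ in their total of peaks. MEGF11 and ADAMTS12 were not compared with the 3 genes within fetuses, so the SDs do not tell whether the genes differ.

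Peaks were also wider in TBC1D5. The share of its bases under peaks was 45.9 ± 4.94% (SD, n = 16), ranging from 33.2% in hay 12 to 52.4% in hay 5. In RAPGEF5 the share was 11.8 ± 3.59% and ranged from 4.59% (hay 11) to 17.0% (hay 5). In FRMD3 it was 2.77 ± 0.863%, between 1.31% (hay 11) and 4.22% (corn 7). Relative to the covered share of the genome of the same fetus, these were 5.34 ± 0.527, 1.34 ± 0.276 and 0.312 ± 0.0617 times as much (SD, n = 16). The ratio for TBC1D5 exceeded its ratio in peak number, and those for RAPGEF5 and FRMD3 were below it. For RAPGEF5 the covered share of hay 11 (0.7502 times) and corn 9 (0.949 times) was below that of the genome. The median peak was 767 bp wide in TBC1D5, 264 bp in RAPGEF5 and 244 bp in FRMD3. Peaks of at least 2 kb made up 9.63% of the peaks of TBC1D5, 0.663% of those of RAPGEF5 and 0% of those of FRMD3, against 3.11% of all peaks.

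The 3 genes also differed in how often the same region was found. In TBC1D5, 61 of 115 regions (53.0%) had a peak in all 16 fetuses, compared with 11 of 72 (15.3%) in RAPGEF5, 4 of 54 (7.41%) in FRMD3 and 17.3% of regions in the genome. Regions with a peak in only 2 to 7 fetuses made up 20.9% in TBC1D5, 43.1% in RAPGEF5 and 63.0% in FRMD3, and 47.6% in the genome. A peak was called in a median of 16 fetuses per region in TBC1D5, 9 in RAPGEF5 and 4.5 in FRMD3, and 8 in the genome. A further 15 regions of TBC1D5, 28 of RAPGEF5 and 33 of FRMD3 were found in a single fetus and entered no test. Among regions with a peak in 2 or more fetuses, most in TBC1D5 thus had a peak in every fetus, and most in FRMD3 in fewer than 8. With those of a single fetus included, it was 61 of 130 regions in TBC1D5. A peak anywhere in a merged region counted for that fetus. The widest such region of TBC1D5 held from 2 peaks (corn 9) to 8 (hay 16) per fetus. Recurrence may therefore follow the density of peaks, which was not tested.

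**Figure D2:**
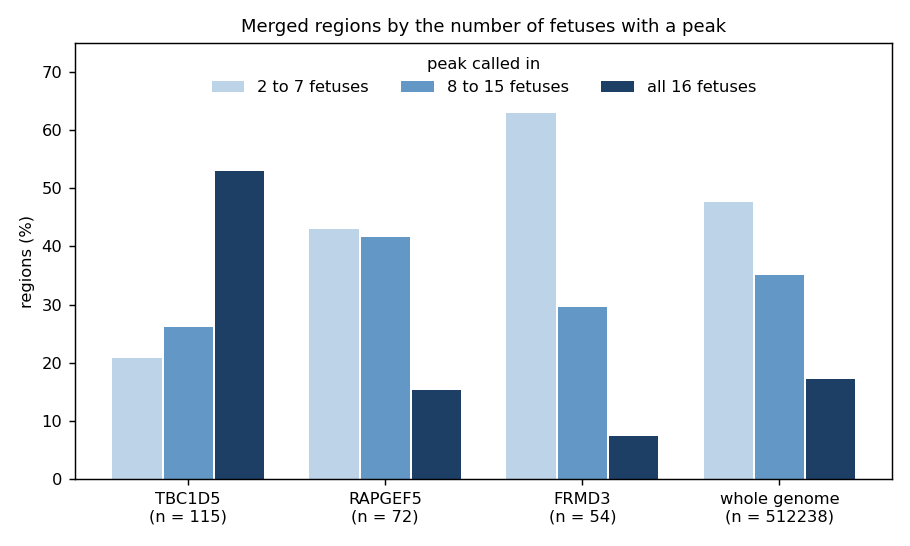
Percent of merged regions with a peak in 2 to 7, 8 to 15 or all 16 fetuses, for each gene and for the whole genome, with the number of regions under each name. In TBC1D5 the tallest bar is that of regions in all 16 fetuses (53.0%), and in FRMD3 that of regions in 2 to 7 fetuses (63.0%).

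Any 2 fetuses had a median of 82.3% of their combined regions in common in TBC1D5 (70.3% to 92.1% over 120 pairs), 57.0% in RAPGEF5 (32.7% to 78.6%) and 40.9% in FRMD3 (19.4% to 66.7%). In the genome the median was 57.4%. Pairs within hay, pairs within corn and mixed pairs had medians of 79.3%, 85.4% and 82.7% in TBC1D5, 54.8%, 57.4% and 57.7% in RAPGEF5, and 38.5%, 41.0% and 41.1% in FRMD3. In each gene the mixed pairs were as alike as or more alike than the hay pairs. These shares are a description, because pairs have fetuses in common, and they count merged regions in the same way.

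Regions were wider in TBC1D5, with a median of 1369 bp, than in RAPGEF5 (809.5 bp), FRMD3 (590 bp) or the genome (766 bp). Regions of at least 2 kb numbered 35 of 115 in TBC1D5 (30.4%), 4 of 72 in RAPGEF5 (5.56%) and 0 of 54 in FRMD3, and 7.20% of regions in the genome were that wide. TBC1D5 also had 6 regions of at least 5 kb (5.22%, against 1.13% in the genome), and the other genes had 0.

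Along TBC1D5 the peaks were spread over the entire body and the 10 kb on either side. The gene body had 45.6 ± 4.765% of bases under peaks (SD, n = 16). The 10 kb before the lower end had 54.7 ± 11.5% and the 10 kb past the upper end 44.4 ± 8.48%, so the coverage was not particular to the gene body. Every one of its 28 stretches of 10 kb, counted from 10 kb before the lower end, held a peak in all 16 fetuses. The longest stretch of TBC1D5 without a peak in any fetus was 4117 bp. Peaks of at least 1 fetus covered 69.4% of its bases, and regions found in all 16 fetuses covered 54.8%. The most covered stretch began 110 kb from the lower end, where 79.3% of bases were under peaks on average, and the least covered stretch had 14.4%. The most covered stretch overlapped the widest region found in all 16 fetuses, which spans 8259 bp (chr1:272290445-272298703) and had a log2 score from 1.95 to 2.62 with a median of 2.30. The score is −log10 of the p-value of the peak, scaled between fetuses, and is given as log2(score + 1), so that 0 means no peak. The strongest region by median score lay near the lower end (chr1:272184889-272191774, 6886 bp), at 2.24 to 2.80 with a median of 2.49.

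Coverage of TBC1D5 was lowest in the upper part of the body, without a steady decline. It was 53.5 ± 5.52% (SD, n = 16) in the lower of 3 equal parts of the body, 49.5 ± 4.56% in the middle part and 33.7 ± 5.37% in the upper part, and it was higher in the lower than in the upper part in 16 of 16 fetuses. The number of peaks per 100 kb changed less (53.4, 46.3 and 48.3), while regions of at least 2 kb went from 14 to 12 to 7. The upper part thus held nearly as many peaks, but fewer wide regions. Its stretches of 10 kb had 20.3% of bases under peaks from 200 kb and 17.8% from 230 kb. Coverage rose again to 53.6% from 250 kb, and was 44.4% in the 10 kb past the upper end. The division into 3 parts was made after the peaks had been mapped, and no test was applied.

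RAPGEF5 had a different outline, with its widest regions at its ends. The region over its lower end (chr4:30900910-30903985, 3076 bp) was found in all 16 fetuses at a log2 score of 1.88 to 2.30 (median 2.03) and was the widest of the gene. The region over its upper end (chr4:31100788-31103634, 2847 bp) was likewise found in all 16, at 1.49 to 2.23 (median 1.83). Both ends thus lay within merged regions that had a peak in every fetus of either diet. Peaks of a single fetus did not fill these regions, and whether they reached the end itself was not checked. The strongest region by median score lay outside the gene, centred at -8.18 kb from the lower end (chr4:30893225-30895203, 1979 bp), at 1.65 to 2.65 with a median of 2.21. The 10 kb before the lower end had 41.5 ± 9.003% of bases under peaks (SD, n = 16), the gene body 10.1 ± 3.41% and the 10 kb past the upper end 16.4 ± 5.84%. Within the body, coverage was 10.6%, 6.47% and 13.3% in the lower, middle and upper part, and the lower part exceeded the upper one in 4 of 16 fetuses. Of 22 stretches of 10 kb, counted from 10 kb before the lower end, 11 held a peak in all 16 fetuses. The longest gap was 7508 bp. At least 1 fetus had a peak over 30.9% of its bases, but regions found in all 16 covered only 8.45%.

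FRMD3 had few peaks, and they thinned out toward its upper end. Coverage was 4.98 ± 1.68% (SD, n = 16) in the lower part of the body, 2.36 ± 0.616% in the middle part and 0.979 ± 0.694% in the upper part, and the lower part exceeded the upper one in 16 of 16 fetuses. Its 4 regions in all 16 fetuses were 2 in the lower and 2 in the middle part. The strongest of them was also the widest (chr2:36141616-36142883, 1268 bp, 142 kb from the lower end), with log2 scores of 1.65 to 2.56 and a median of 2.03. Of 36 stretches of 10 kb, counted from 10 kb before the lower end, 5 held a peak in all 16 fetuses and 5 held no peak in any. The longest gap ran for 31070 bp, from 175 to 206 kb. Only 10.6% of its bases were under a peak of any fetus, and 1.13% were in regions of all 16. No region covered either end of FRMD3. The nearest lay 6531 bp inside the lower end (895 bp, all 16 fetuses) and 1296 bp inside the upper end (351 bp, 3 fetuses). At TBC1D5 a region of 5274 bp, with a peak in all 16 fetuses, covered the lower end. A region of 1778 bp, with a peak in 14, lay 200 bp past the upper end.

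**Figure D3:**
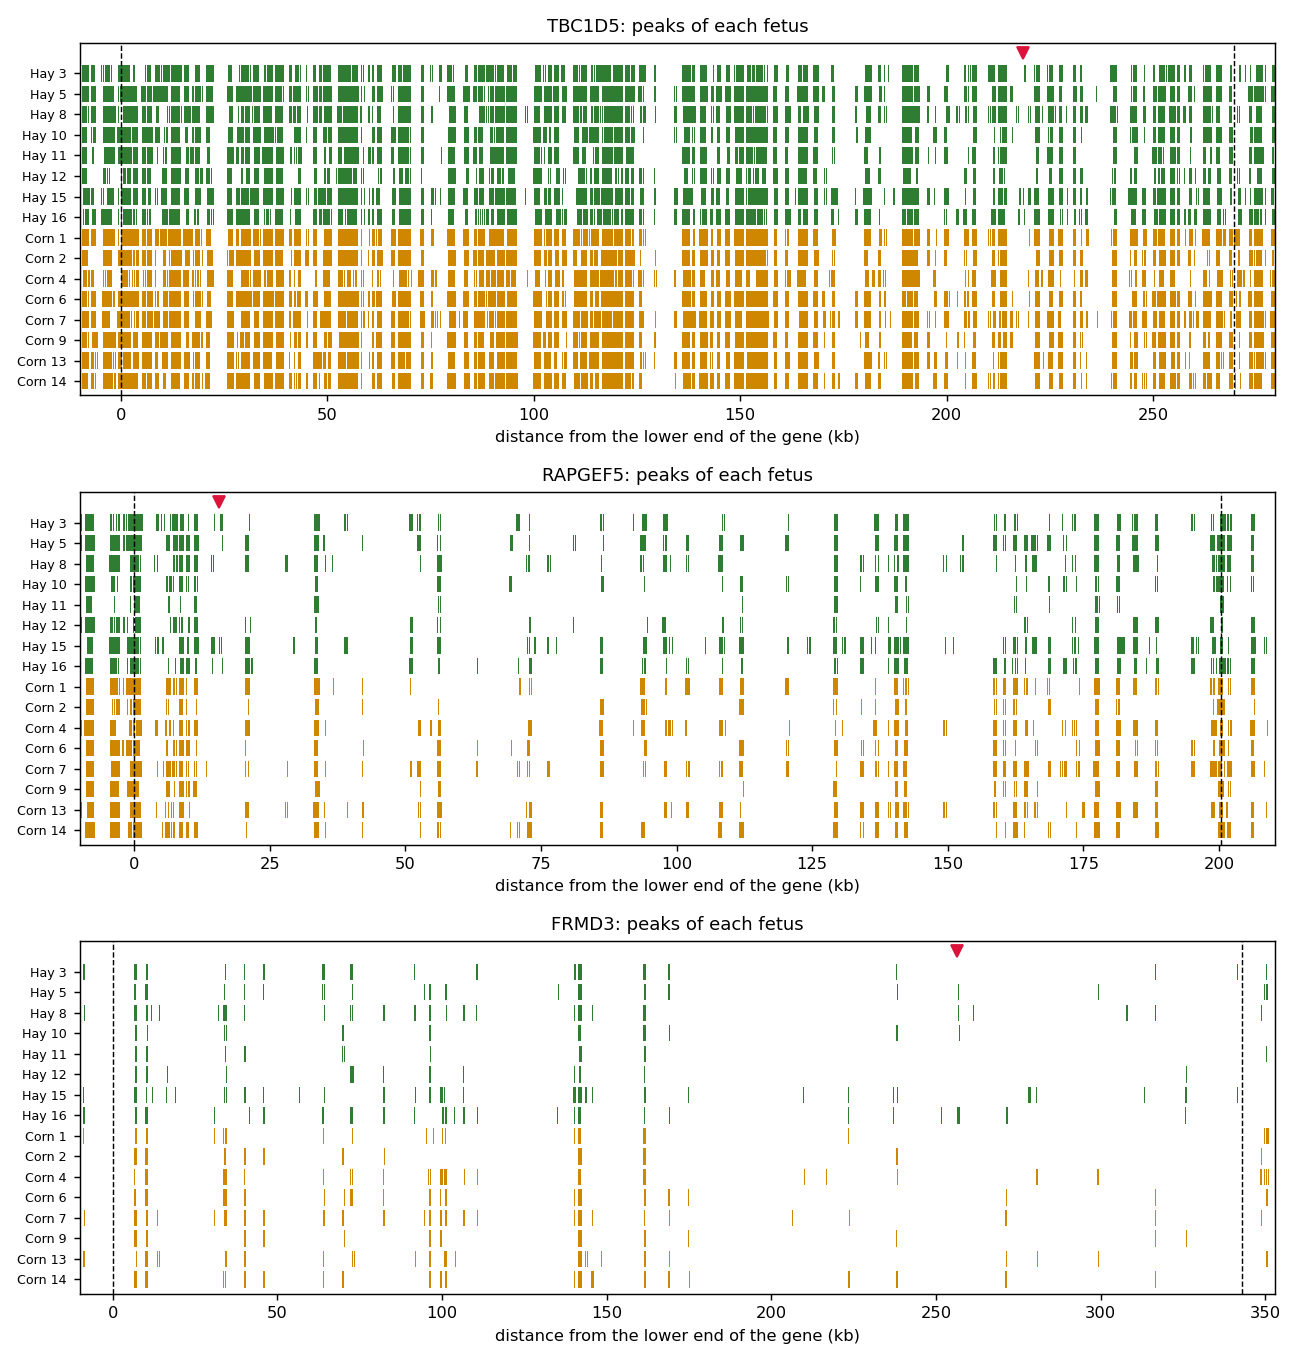
Peaks of each fetus (1 row per fetus, hay in green and corn in orange) along TBC1D5, RAPGEF5 and FRMD3, in kb from the lower end of the gene, with 10 kb on either side. Dashed lines are the gene ends and red triangles the regions listed by the study. TBC1D5 is covered throughout, RAPGEF5 most heavily around its lower end, and FRMD3 has a gap from 175 to 206 kb.

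The question of the study was whether maternal diet changes methylation in fetal muscle. Over whole gene bodies, no difference between diets in these 3 genes passed the test at p under 0.05, with p from 0.08998 to 0.9268 (exact permutation tests). For each gene the peaks were counted per 100000 peaks of the same fetus. In TBC1D5 this rate was 30.4 to 44.8 in hay with a median of 37.3, and 30.8 to 39.7 in corn with a median of 36.0. In RAPGEF5 it was 10.7 to 16.4 in hay and 9.69 to 16.2 in corn, with a median of 14.4 in both. In FRMD3 it was 4.12 to 9.04 in hay with a median of 7.39, and 4.30 to 8.80 in corn with a median of 6.99. The groups overlapped in all 3 genes, and in TBC1D5 the upper part of the hay range lay above every corn fetus.

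The mean rate in TBC1D5 was 37.4 ± 4.36 in hay and 35.9 ± 2.95 in corn (SD, n = 8 each; exact permutation test, two-sided, p = 0.4578). When only peaks with a score above the median of all peaks were counted, the rate in TBC1D5 was 6.87 higher in hay (exact permutation test, p = 0.0446), before any adjustment for the number of comparisons. That cut was made on scores before scaling. Median scores of single libraries ran from 1.346 (corn 4) to 1.733 (corn 14), so it kept unlike shares of peaks per library. The mean rates of RAPGEF5 were 14.1 ± 1.85 and 13.9 ± 1.96 (exact permutation test, n = 8 each, p = 0.8531), and those of FRMD3 were 7.03 ± 1.88 and 6.94 ± 1.45 (exact permutation test, n = 8 each, p = 0.9268).

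Covered shares likewise did not separate the diets. In TBC1D5 the share was 44.2 ± 5.96% in hay and 47.6 ± 3.20% in corn (SD, n = 8 each; exact permutation test, p = 0.1838). Relative to the covered share of the genome in the same fetus, the TBC1D5 difference changed direction and was 0.0346 higher in hay (exact permutation test, p = 0.9009). In RAPGEF5 it was 11.9 ± 4.40% and 11.7 ± 2.87% (exact permutation test, n = 8 each, p = 0.9061), and in FRMD3 2.63 ± 1.02% and 2.91 ± 0.717% (exact permutation test, n = 8 each, p = 0.5287). The median log2 score per fetus was 1.65 ± 0.07 in hay and 1.61 ± 0.08 in corn in TBC1D5 (exact permutation test, n = 8 each, p = 0.2844). It was 1.33 ± 0.13 and 1.23 ± 0.10 in RAPGEF5 (exact permutation test, n = 8 each, p = 0.08998), and 1.25 ± 0.16 and 1.18 ± 0.11 in FRMD3 (exact permutation test, n = 8 each, p = 0.3259). Without scaling between fetuses, the score was lower in hay in all 3 genes, by 0.12, 0.03 and 0.06, so its direction rests on the scaling. Without the 5 libraries with narrow peaks, the scaled difference fell from 0.11 to 0.04 in RAPGEF5 (exact permutation test, p = 0.3697) and from 0.07 to 0.002 in FRMD3 (exact permutation test, p = 0.9848). These were 9 comparisons (3 measures in 3 genes), and the p-values are unadjusted.

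The regions were then compared one by one, leaving out the 3 that the study listed, since those had been chosen for a difference between these diets. The study had called its DMRs from aligned reads, with DiffBind and edgeR at a threshold of 0.1. The comparison here used scores of called peaks, with 0 where no peak was called, so it does not repeat that test. Of the remaining 238 regions, 0 had a Benjamini-Hochberg adjusted p under 0.1 with limma, fitted and adjusted over all 512238 regions, of which 3 (0.000586%) passed. An unadjusted limma p under 0.05 was reached by 6 regions (2.52%), against 3.16% of all regions. These 6 were 3 in TBC1D5 (2.63%; 1 higher in hay, 2 in corn), 3 in RAPGEF5 (4.23%; 2 higher in hay, 1 in corn) and 0 in FRMD3. By Fisher's exact test on the number of fetuses with a peak, 0 of 238 reached an unadjusted p under 0.05 and 0 an adjusted p under 0.1, against 0.59% of all regions at the unadjusted threshold. Without scaling between fetuses, 22 of the 238 regions (9.24%) had an unadjusted limma p under 0.05, against 5.68% of all regions, so whether the share lies below or above that of the genome rests on the scaling.

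The mean log2 score was higher in hay in 115 of the 238 regions (48.3%), compared with 53.9% in the genome. By gene these were 46 of 114 in TBC1D5, 41 of 71 in RAPGEF5 and 28 of 53 in FRMD3. The median difference, hay minus corn, was -0.03 in TBC1D5, 0.02 in RAPGEF5 and 0.0036 in FRMD3, against 0.02 in the genome. Without scaling between fetuses 32.8% of the 238 regions were higher in hay, against 40.4% in the genome. Without the libraries with narrow peaks it was 39.7% of 199 regions, against 44.7% in the genome. A peak in at least 3 hay fetuses and 0 corn fetuses was found at 2 regions, both in RAPGEF5, where 1.49% of all regions had this pattern. The opposite, at least 3 corn fetuses and 0 hay fetuses, was found at 1 region in TBC1D5, against 0.853% of all regions. This region (257 bp, 174 kb from the lower end) was named after its values were seen and had a peak in 3 corn fetuses.

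**Figure D4:**
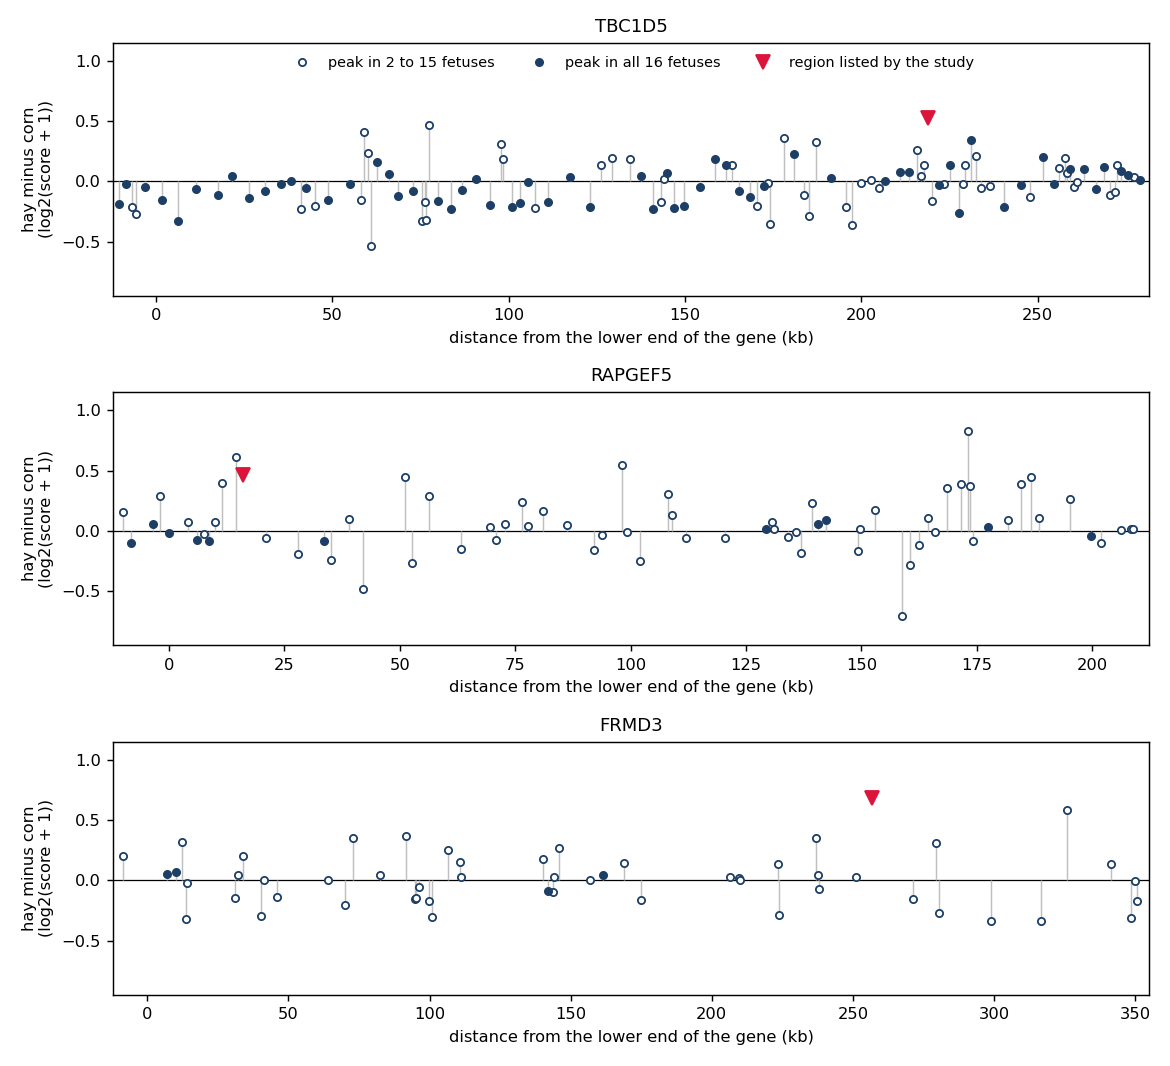
Difference in mean log2(score + 1) between 8 fetuses of hay-fed and 8 of corn-fed ewes (y axis) at each region, against the distance of the region from the lower end of the gene in kb (x axis). Filled points are regions with a peak in all 16 fetuses, open points those in 2 to 15, and red triangles the regions listed by the study; points lie on both sides of 0 along all 3 genes, and filled points lie between -0.33 and 0.34.

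In TBC1D5 the region with the smallest limma p was higher in corn (chr1:272237723-272238555, 833 bp, 61.1 kb from the lower end). Its log2 score was 0 to 2.08 in hay with a median of 1.61, and 1.51 to 2.37 in corn with a median of 2.02. All fetuses except hay 12 had a peak there, and the groups overlapped. The difference was -0.54 (SE 0.17) with a limma adjusted p of 0.919, and without hay 12 it was -0.32. A second region higher in corn, singled out after its values were seen, lay 6.27 kb from the lower end (2787 bp) and had a peak in all 16 fetuses. Its scores were 1.72 to 2.52 in hay and 1.94 to 3.09 in corn, a difference of -0.33 (SE 0.12; limma, adjusted p = 0.919).

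The region of TBC1D5 with the smallest limma p among those higher in hay (chr1:272407482-272408546, 1065 bp, 231 kb) was also present in all 16 fetuses. Scores were 1.67 to 2.35 in hay with a median of 1.86, and 0.97 to 1.89 in corn with a median of 1.68. Hay was higher by 0.34 (SE 0.15; limma, adjusted p = 0.919), and by 0.25 without corn 9, the lowest corn fetus. At the same regions the ranges of the 2 diets overlapped, and the 2 directions were found within 1 gene.

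In RAPGEF5 the region higher in hay with the smallest p (chr4:31075196-31075544, 349 bp, 173 kb) had a peak in 5 hay fetuses (hay 3, 8, 12, 15 and 16) and in corn 4. Scores of these hay fetuses were 1.85, 1.27, 1.41, 2.40 and 1.21, and corn 4 had 1.495. The difference was 0.83 (SE 0.37; limma p = 0.02706, adjusted p = 0.919; Fisher's exact test, p = 0.1189). All 5 libraries with narrow peaks had a peak here, compared with 1 of 4 other hay fetuses and 0 of 7 other corn fetuses. The part of peak width in this difference was not tested.

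The region of RAPGEF5 higher in corn (chr4:31060763-31061535, 773 bp, 159 kb) had a peak in all 8 corn fetuses, at 1.06 to 1.54 with a median of 1.32. In hay a peak was found in hay 3, 5, 8 and 16, at 1.10, 1.02, 1.22 and 1.46. The difference was -0.70 (SE 0.29; limma p = 0.01605, adjusted p = 0.919; Fisher's exact test, p = 0.07692). The hay fetuses that had a peak scored within the range of corn or just below it, so the difference lay in the number of fetuses called. Among the 11 libraries without narrow peaks, it was present in 2 of 4 hay and 7 of 7 corn fetuses.

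In FRMD3 no region reached an unadjusted p under 0.05. The region higher in hay with the smallest p (chr2:36325950-36326461, 512 bp, 326 kb) had a peak in 5 hay fetuses at up to 1.54 and in 2 corn fetuses at up to 0.998 (difference 0.58, SE 0.36; limma, adjusted p = 0.919). Of its 7 peaks, 4 were in libraries with narrow peaks, and without those 1 of 4 hay and 2 of 7 corn fetuses had a peak. The region higher in corn with the smallest p (chr2:36013955-36014209, 255 bp, 13.7 kb) had a peak in 2 corn fetuses at 1.10 and 1.47 and in 0 hay fetuses (difference -0.32, SE 0.21; limma, adjusted p = 0.919).

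As merged here, the regions at those listed by the study were 627 to 780 bp wide, against a median of 766 bp in the genome. In TBC1D5 the region in the study's list extends further up than the merged one. They had a peak in 3 to 5 fetuses, and 47.6% of regions in the genome had a peak in 2 to 7. The genes entered the study's list through the listed regions, so the values there are described without a test. In TBC1D5 the listed region (chr1:272395666-272396292 as merged here, 627 bp, 219 kb from the lower end) had a peak in hay 3, 15 and 16, at log2 scores of 1.504, 1.29 and 1.44, and in 0 corn fetuses. In RAPGEF5 (chr4:30918087-30918838, 752 bp, 15.7 kb from the lower end) hay 3, 5, 15 and 16 had a peak at 1.13, 0.79, 1.35 and 1.46, and corn 7 had one at 1.03. In FRMD3 (chr2:36256878-36257657, 780 bp, 256.5 kb from the lower end) hay 5, 8, 10 and 16 had a peak at 0.96, 1.43, 1.38 and 1.68, and 0 corn fetuses did. In each gene at least 4 of 8 hay fetuses had no peak at the listed region.

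The fetuses with a peak were partly the same at the 3 regions. Of 8 hay fetuses 6 had a peak in at least 1 listed region, hay 16 alone had a peak in all 3, and hay 11 and 12 had none. In TBC1D5 all 3 peaks were in libraries with narrow peaks, and without those libraries 0 of 4 hay and 0 of 7 corn fetuses had a peak. In RAPGEF5 3 of 5 peaks were in such libraries, which left 1 of 4 hay and 1 of 7 corn fetuses. In FRMD3 it was 1 of 4 peaks, which left 3 of 4 hay and 0 of 7 corn fetuses. Whether peak width has a part in these values was not tested.

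Before scaling these 12 peaks had scores of 0.921 to 1.84, and 8 of the 12 were under 1.47, the median score of all peaks pooled. Median scores of single libraries ran from 1.346 (corn 4) to 1.733 (corn 14). The hay 16 peaks of TBC1D5 (1.419) and RAPGEF5 (1.453) were under the pooled median but above that library's own median of 1.39. No peak above the pooled median was under that of its own library. With such values and no read counts, a fetus without a peak may still have had enriched fragments there, and the files do not tell these apart. At the strongest region of the same gene every fetus had a peak, with the lowest log2 score at 2.24 in TBC1D5, 1.65 in RAPGEF5 and 1.65 in FRMD3. The listed peaks of TBC1D5 and RAPGEF5 were all below these values, and in FRMD3 hay 16 with 1.68 was the exception.

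**Figure D5:**
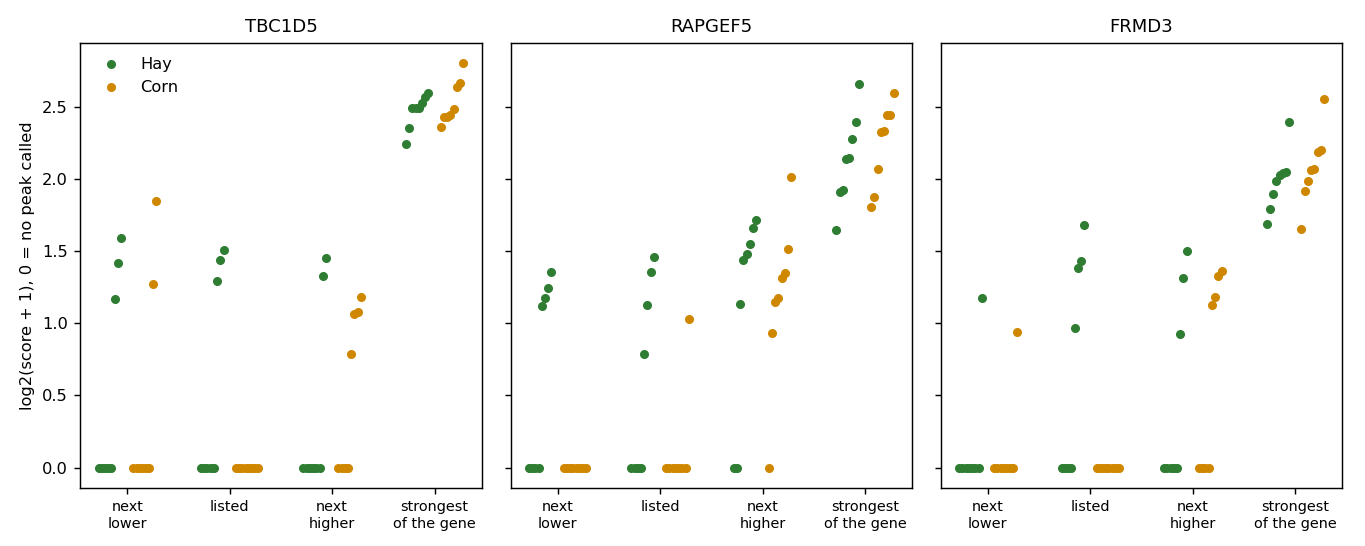
Log2(score + 1) per fetus (hay green, corn orange, 0 where no peak was called) at the region listed by the study, the nearest regions on either side and the strongest region of each gene. At the listed regions peaks are seen in 3 or 4 hay fetuses and 0 or 1 corn fetus, at the strongest regions in all 16 fetuses of both diets.

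The nearest regions with a peak in 2 or more fetuses showed how far the listed pattern extended. Distances are from the listed region as merged here. In TBC1D5 the region 581 bp below had a peak in 3 hay and 2 corn fetuses (limma, adjusted p = 1), and the region 424 bp above in 2 hay and 4 corn fetuses (limma, adjusted p = 1). In FRMD3 the neighbours lay 5230 bp below, with 1 hay and 1 corn fetus (limma, adjusted p = 1), and 13753 bp above, with 3 hay and 4 corn fetuses (limma, adjusted p = 1). These neighbours thus had peaks in both diets. Regions seen in a single fetus lay nearer still. There was 1 of these at TBC1D5, in a hay fetus, and at FRMD3 there were 2 in a hay fetus and 1 in a corn fetus.

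In RAPGEF5 the region 783 bp below the listed one (chr4:30916604-30917303, 700 bp) had a peak in hay 3, 8, 15 and 16, at 1.17, 1.36, 1.24 and 1.12, and in 0 corn fetuses. The difference was 0.61 (SE 0.28; limma p = 0.0329, adjusted p = 0.919; Fisher's exact test, p = 0.07692). Of these 4 fetuses, hay 3, 15 and 16 also had a peak in the listed region, and those are libraries with narrow peaks. The other neighbour, 3923 bp above, had a peak in 6 hay and 7 corn fetuses (limma, adjusted p = 1). The other region of RAPGEF5 with a peak in at least 3 hay fetuses and 0 corn fetuses (239 bp, 187 kb from the lower end) was named after its values were seen and had a peak in 3 hay fetuses.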

How the data were processed

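MBD-enriched DNA of 16 fetal LD samples (8 hay, 8 corn) was analysed as peak lists. The submitters' processing notes name Trimmomatic 0.33 for trimming, BWA 0.7.15 for alignment to Oar_v3.1 and Picard 1.107 for duplicates, and the authors then ran ChIPseeqer on each fetus. Each deposited peak has a position and 1 value, read here as its p-value (0 to 0.1352, with 1315 values of 0 set to 1e-100). This reading rests on the values, and no peak threshold or input control is given in the sources used here. Read counts and depth are unknown, so no interval that needs them was computed. A fetus may lack a peak through shallow sequencing or through little methylation.

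Overlapping peaks were merged into 706111 regions, of which those seen in 2 or more fetuses entered the fits. The highest score (−log10 p) per fetus was divided by a median-ratio factor (0.7647 to 1.383) over the 88488 regions common to all fetuses, and log2(score + 1) was analysed. Gene ends and listed positions came from the study's supplementary list, and no other value of it was used. The last peak of a chromosome marked its length. Single values were compared by exact permutation over 12870 assignments (smallest p 0.0001554) or, within fetuses, by exact sign flips. Regions were fitted with limma 3.58.1 (R 4.3.3, eBayes with trend) with Benjamini-Hochberg adjustment over the genome and a threshold of 0.1, and by Fisher's exact test. The limma fit and the exact permutation and sign-flip tests were tried on simulated data, and the merging on a small example. Differences added for limma there were larger than any seen in these genes. Its power at the sizes seen here was not tested. Figures were drawn with matplotlib 3.10.9, and the remaining steps ran in Python 3.11.15 (scipy 1.17.1, numpy 2.4.6, pandas 2.3.3).

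The regions named in each gene were the listed one and its nearest neighbours, the strongest, the widest in all 16 fetuses and, in each direction, that with the smallest limma p. The genes and these rules were chosen with earlier results of these data known. Lists of related genes (retromer partners, other RAPGEF and FRMD genes) were not analysed here, since no Oar_v3.1 annotation was used. Neighbouring genes were read from RefSeq's ARS-UI_Ramb_v3.0 annotation. Dam, sex and sequencing lane are not given per sample.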

Additional observations from a re-analysis of the deposited data

Results flagged for a closer look

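Within each diet, the lowest or highest of 8 fetuses was compared with its nearest neighbour in 54 groups of values. With continuous values, chance alone flags about 1 in 20 groups. That rate does not apply to regions picked for the smallest limma p, or to groups in which most fetuses had no peak. A lone peak among values of 0 is always marked. The comparison marked 4 values, in 3 fetuses, as standing apart. In RAPGEF5, corn 9 had a log2 ratio of peak density to its own genome of 0.19, and the next corn fetus had 0.60. In the TBC1D5 region 231 kb from the lower end, corn 9 had a log2 score of 0.97 and the next corn fetus 1.49. In the TBC1D5 region at 61.1 kb, hay 12 had no peak (0) and the next hay fetus had 1.32. In the RAPGEF5 region at 173 kb, corn 4 had 1.495 and the other corn fetuses 0. Hay 12 and corn 4 are among the 5 libraries with narrow peaks, and corn 9 is not.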

How the results depend on the processing

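Over 15 results, 78 alternative values were computed, of which 60 kept the direction and the side of the threshold or stayed within 1.5 times the count. The higher density of TBC1D5 and RAPGEF5 and the lower density of FRMD3 against the genome kept direction and call under every alternative run. The diet differences per gene (hay minus corn), none of which passed p under 0.05 as reported, were less stable. A cut at the median score, made before scaling, gave a TBC1D5 rate difference of 6.87 (exact permutation test, p = 0.0446). With all peaks it was 1.43. The same cut turned the FRMD3 rate difference from 0.08 to -0.67 and the RAPGEF5 covered share from 0.22 to -0.41 percentage points. With scores above the 25th percentile the last 2 were -0.127 and -0.0607. Without scaling, the median scores were -0.117 in TBC1D5, -0.0292 in RAPGEF5 and -0.0626 in FRMD3. The TBC1D5 covered share relative to that of the genome was 0.0346 higher in hay, the RAPGEF5 rate in the gene body alone was -0.0101, and the RAPGEF5 covered share without the 5 libraries with narrow peaks, an alternative chosen after seeing the data, was -0.43. Regions of the 3 genes with an unadjusted limma p under 0.05 numbered 22 without scaling (9.24%, against 5.68% in the genome) and 3 with presence of a peak in place of the score (1.26%, against 2.30%), against 6 (2.52%, against 3.16%), and 0 passed the adjusted threshold under every alternative. In the genome, 46 regions passed without scaling, 11 with a pseudocount of 5, 0 with scores above the 25th percentile, 1 with a peak in at least 3 fetuses and 59 without the libraries with narrow peaks, against 3. The causes of these changes were not tested. No paired analysis was possible because the replicate numbers run from 1 to 16 and none is shared between diets. The depth behind a peak is unknown, so a weak peak and no peak cannot be told apart with confidence.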
